A study of Mus musculus with 4 samples.

Results

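The 10 genes described here encode the MHC class I pathway of antigen presentation in the mouse. They are the classical heavy chains H2-K1 and H2-D1, the nonclassical heavy chain H2-T23 (which encodes Qa-1), the light chain B2m, the peptide transporter subunits Tap1 and Tap2, tapasin (Tapbp), the immunoproteasome subunits Psmb8 and Psmb9, and Nlrc5, a transactivator of class I genes. They were chosen by name, with earlier results of these data known. All 10 were found among the 18386 genes and unassigned transcripts counted in the cortex. In this pathway the proteasome cuts cytosolic proteins into peptides, TAP moves the peptides into the endoplasmic reticulum, and tapasin holds an empty heavy chain and beta-2 microglobulin next to TAP until a peptide is bound. Interferon raises many of these genes together, and in the brain class I is known both from microglia and endothelium and from neurons.

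The study compared 2 APPswe/PS1ΔE9 mice (APP) with 2 wild type mice (WT), all male and 12 months old. The labels give a C57BL/6 background for both groups, and the WT controls were C57BL/6J mice. APP mice carry a human or chimeric APP with the Swedish mutations and a human PS1 lacking exon 9, both under the mouse prion protein promoter, and deposit amyloid in the cortex with age. Ribosomal RNA was removed from total RNA of dissected cortex, and stranded libraries were sequenced. The libraries, called APP-3, APP-4, WT-1 and WT-2 after their columns, held between 28525117 and 43881196 counts, and the APP columns could be tied only to their group and not to a single mouse.

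App and Prnp, on which reads from the transgenes can be counted, went with the genotype labels. WT-1 and WT-2 held 23138 and 18967 counts of Prnp while APP-3 and APP-4 held 53838 and 50246, and for App these were 37675 and 32094 against 77727 and 73975. The APP libraries differed more from each other than the WT libraries did. Between the replicates, chi-square divided by its degrees of freedom (about 1 under counting error alone) was 5.27 for WT but 28.7 for APP. Avp, a hypothalamic neuropeptide gene looked up after its values were known, had 2 and 0 counts in the WT libraries but 18 in APP-3 and 102 in APP-4. Results are therefore also given without each library where that moved them. With 1 library left in a group, such a fit sees no spread within that group, and its p-values do not measure it.

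Of the 10 genes, 3 were upregulated in APP cortical samples compared to WT controls, namely H2-K1, H2-D1 and Psmb8, by 1.94-fold to 2.66-fold. To pass both cut-offs a gene had to differ at least 1.5-fold with an adjusted p (FDR) under 0.05, here from the quasi-likelihood test of edgeR, with p-values adjusted by Benjamini-Hochberg over all features. Over all features, 0.843% passed both cut-offs and were higher in APP. B2m lay just outside the cut-off on adjusted p, and the other 6 genes did not pass. All 10 fitted log2 fold changes were above 0, with a median of 0.87 against -0.00 over all features. In 9 of the 10, each APP library lay above each WT library, and 21.3% of all features had the same order. Since the 10 genes were chosen with earlier results of these data known, these shares are a background and not a test of the set. Because 2 libraries against 2 hold an exact permutation test at p = 0.33 or more, the adjusted p-values draw on spread that edgeR pools across features. In bulk tissue, more cells of a type and more RNA per cell cannot be told apart.

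**Figure D1:**
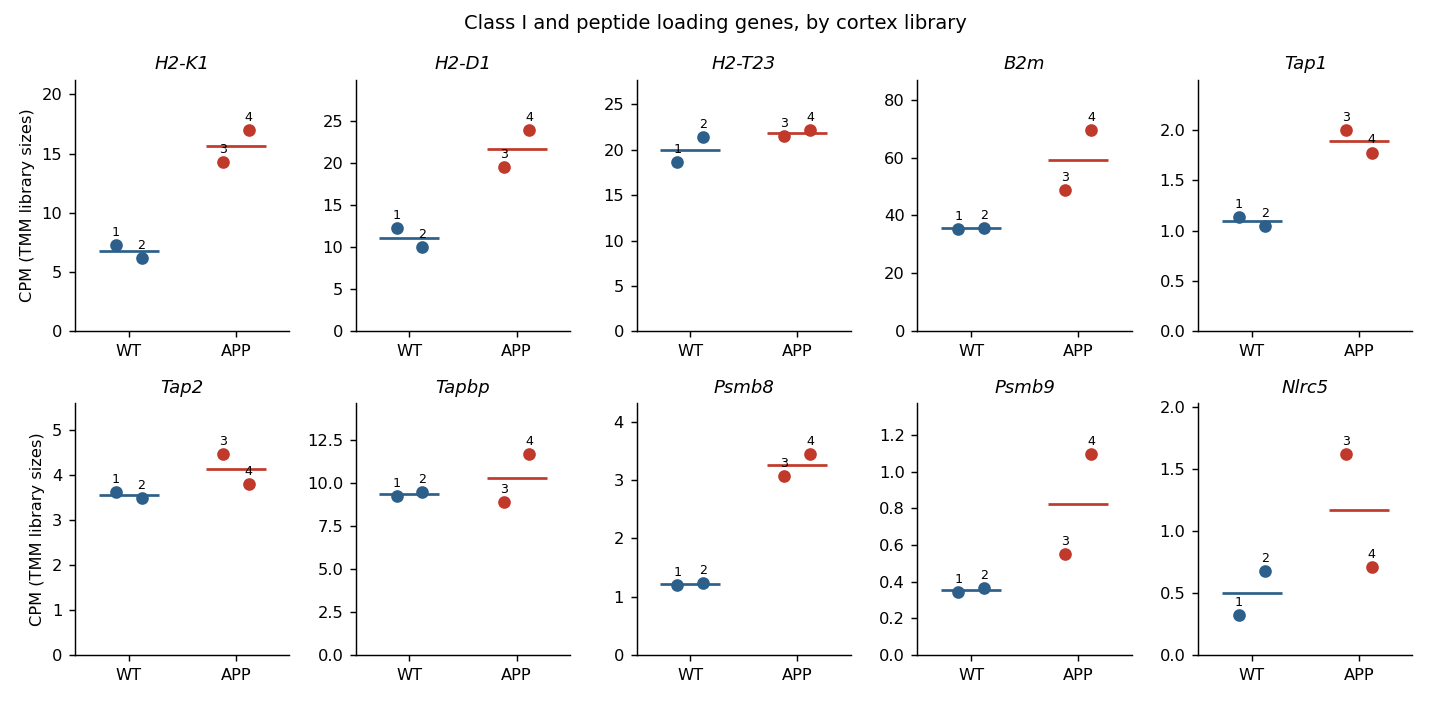
CPM (counts scaled to the TMM library sizes) of the 10 genes in each cortex library. Points are libraries with their column numbers, lines are means of 2 libraries, each panel has its own axis from 0, and only Tapbp has an APP library (8.89 CPM in APP-3) below a WT library.

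The heavy chains present the peptide. H2-K1 (chromosome 17 of GRCm38, 33996017 to 34000347, minus strand) had 321 and 220 counts in WT-1 and WT-2 and 415 and 526 in APP-3 and APP-4. Scaled by library size to CPM, these were 7.30 and 6.21 in WT and 14.3 and 16.98 in APP. Both APP libraries were at about the same height and well above both WT libraries, though WT-1 was sequenced most deeply. Mean levels were 6.76 ± 0.777 CPM for WT and 15.6 ± 1.89 for APP (SD, n = 2), and the fitted log2 fold change was 1.21 with a standard error (SE) of 0.14 (adjusted p = 0.00646). H2-D1 (chromosome 17, 35262730 to 35267499, plus strand) had 539 and 354 counts in the WT libraries and 565 and 740 in the APP libraries, which is 12.3 and 9.99 CPM against 19.5 and 23.9. Its groups did not overlap either, and its log2 fold change was 0.96 (SE 0.14, adjusted p = 0.0156). Both genes passed both cut-offs without any 1 of the libraries as well.

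H2-T23 (chromosome 17, 36029773 to 36032855, minus strand), whose product presents leader peptides of other class I chains to receptors of NK and T cells, had 821 and 758 counts in WT-1 and WT-2 and 625 and 687 in APP-3 and APP-4. At 18.7 and 21.4 CPM in WT and 21.5 and 22.2 in APP the libraries lay close together, with WT-2 just below APP-3. The log2 fold change was 0.13, with an approximate 95% interval of -0.08 to 0.34 (adjusted p = 0.648), which leaves out the 1.5-fold cut-off.

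B2m (chromosome 2, 122147686 to 122153083, plus strand), the light chain that every class I heavy chain needs to reach the cell surface, had the most counts of the 10 genes. WT-1 and WT-2 held 1559 and 1261 of them and APP-3 and APP-4 held 1412 and 2153, or 35.5 and 35.6 CPM against 48.7 and 69.5. The WT libraries were almost equal, and the APP libraries lay above them but apart from each other. The log2 fold change of 0.74 (SE 0.14) had an adjusted p of 0.0536. Without APP-3 the log2 fold change was 0.97, and without APP-4 it was 0.46, under the fold cut-off. Without WT-1 it was 0.73, and without WT-2 it was 0.74. B2m passed both cut-offs with DESeq2 (adjusted p = 4.10e-05) and with edgeR's exact test (0.000169) and likelihood ratio test (0.000162). It also passed in the fit of transcripts (0.00437) and with the quasi-likelihood test on library totals without TMM (0.0347). Its call therefore depends on the test, the scaling and the libraries used.

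The start regions of these 4 genes are printed to show what the chains and B2m have in common there. RefSeq windows from 250 bases before to 50 after a start, on GRCm38.p6, were matched for 8 of the 10 genes, and none for Tap2 and Nlrc5. They lie at chr17:34000298-34000597 on the minus strand for H2-K1, chr17:35262844-35263143 on the plus strand for H2-D1, chr2:122147437-122147736 on the plus strand for B2m and chr17:36032652-36032951 on the minus strand for H2-T23. Capitals mark matches, on either strand, to motif letters set after the windows had been read. These are the core AANNGAAA of the interferon-stimulated response element, GGGANNNNCC for NF-kappaB, TGACG for the X2 box and CCAAT for the Y box.
H2-K1: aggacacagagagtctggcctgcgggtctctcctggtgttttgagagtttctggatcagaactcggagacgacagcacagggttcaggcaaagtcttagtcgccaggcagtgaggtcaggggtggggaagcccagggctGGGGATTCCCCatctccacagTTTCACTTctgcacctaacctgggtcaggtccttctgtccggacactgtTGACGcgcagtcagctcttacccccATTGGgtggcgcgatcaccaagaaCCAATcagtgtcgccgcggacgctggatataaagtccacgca
H2-D1: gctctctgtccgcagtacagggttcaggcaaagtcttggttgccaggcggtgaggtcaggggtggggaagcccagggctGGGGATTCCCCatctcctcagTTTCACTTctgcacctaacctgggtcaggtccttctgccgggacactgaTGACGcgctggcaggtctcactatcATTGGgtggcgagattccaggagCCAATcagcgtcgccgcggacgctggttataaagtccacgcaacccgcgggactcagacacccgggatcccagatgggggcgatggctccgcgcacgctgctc
B2m: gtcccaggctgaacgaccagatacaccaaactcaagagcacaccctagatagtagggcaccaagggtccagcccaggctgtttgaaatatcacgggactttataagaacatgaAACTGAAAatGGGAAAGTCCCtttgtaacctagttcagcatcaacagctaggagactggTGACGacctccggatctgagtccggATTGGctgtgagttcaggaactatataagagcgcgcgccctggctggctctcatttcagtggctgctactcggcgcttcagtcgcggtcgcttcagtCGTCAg
H2-T23: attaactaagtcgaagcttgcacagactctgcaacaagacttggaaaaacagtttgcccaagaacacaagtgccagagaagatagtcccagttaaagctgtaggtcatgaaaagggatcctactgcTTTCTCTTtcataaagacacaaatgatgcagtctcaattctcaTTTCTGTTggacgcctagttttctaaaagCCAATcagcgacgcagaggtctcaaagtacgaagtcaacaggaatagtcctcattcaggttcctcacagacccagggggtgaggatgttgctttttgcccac

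The windows of H2-K1 and H2-D1 shared an unbroken run of 47 bases, which ended a few bases after the NF-kappaB match. In both, an NF-kappaB match, an AANNGAAA match, a TGACG and a pair of CCAAT matches followed each other in the same order, with the first match at position -111 from the start in H2-K1 and -171 in H2-D1. These positions depend on the annotated start. The RefSeq start lay 364 bases from the GENCODE gene start for H2-D1, 154 for H2-T23 and 1 for B2m. H2-K1 had 2 windows, and the one at distance 0 was used. B2m held all 4 kinds too. H2-T23 held AANNGAAA and CCAAT but no NF-kappaB or TGACG match, and its longest run in common with H2-D1 was 12 bases. Among the windows not printed, the RefSeq start lay 474 bases from the GENCODE gene start for Psmb8 and 434 for Psmb9. It lay 3579 bases away for Tapbp and 3 for Tap1. The Psmb8 window held none of the 4 kinds. Those of Tap1 and Psmb9, which overlap, held TGACG and CCAAT, and that of Tapbp held CCAAT only. Matches at other starts of these genes were not looked for. The gamma-activated site TTCNNNGAA, also looked for, was matched in Psmb8 alone of the 8 windows and in 8.30% of all windows. Of 32851 windows, 23.9% held AANNGAAA, 20.7% the NF-kappaB letters, 20.8% TGACG and 37.4% CCAAT, so that each alone is common. The NF-kappaB letters matched both strands, offset by 1 base, in each of the 3 genes that held them, and no other motif overlapped them there. These matches describe letters and were not tied to binding by any data here.

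Reads of the heavy chains can be hard to place. Of all 100-base stretches of the main H2-K1 transcript, 42.2% lay within the 7 mismatches that the alignment allowed of a counted transcript of another gene, foremost H2-Q4 (32.6%) and H2-D1 (24.9%). The share was 34.1% for H2-D1 and 64.5% for H2-T23, at most 2.35% for Tap1, Tap2 and Tapbp, and 0 for B2m, Psmb8, Psmb9 and Nlrc5. How the authors placed reads that match several transcripts is not given in the sources used here, so the levels of the heavy chains are less certain than those of B2m. With the counts of H2-K1 and H2-D1 summed, an alternative added after the data had been seen that removes exchange between this pair, the log2 fold change was 1.06 (adjusted p = 0.00635). H2-Q4, the neighbour with the most stretches in common, had 6029 and 5713 counts in the WT libraries and 5031 and 4009 in the APP libraries, with 0.02 as its log2 fold change (adjusted p = 0.974).

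By transcript, 4 of the 13 counted transcripts of the 10 genes passed both cut-offs and were higher in APP, against 0.749% of all 37539 transcripts. They were the main transcripts of H2-K1 (log2 fold change 1.19, adjusted p = 0.000257) and H2-D1 (0.98, adjusted p = 0.000701), and the single transcripts of B2m (0.74, adjusted p = 0.00437) and Psmb8 (1.42, adjusted p = 0.00288). The main H2-D1 transcript held between 93.1% and 94.6% of the gene's counts in each library. A short H2-K1 transcript of 579 bases had 14 counts in APP-3 and 0 in the other 3 libraries, which is 3.37% of the gene's counts in APP-3.

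**Figure D2:**
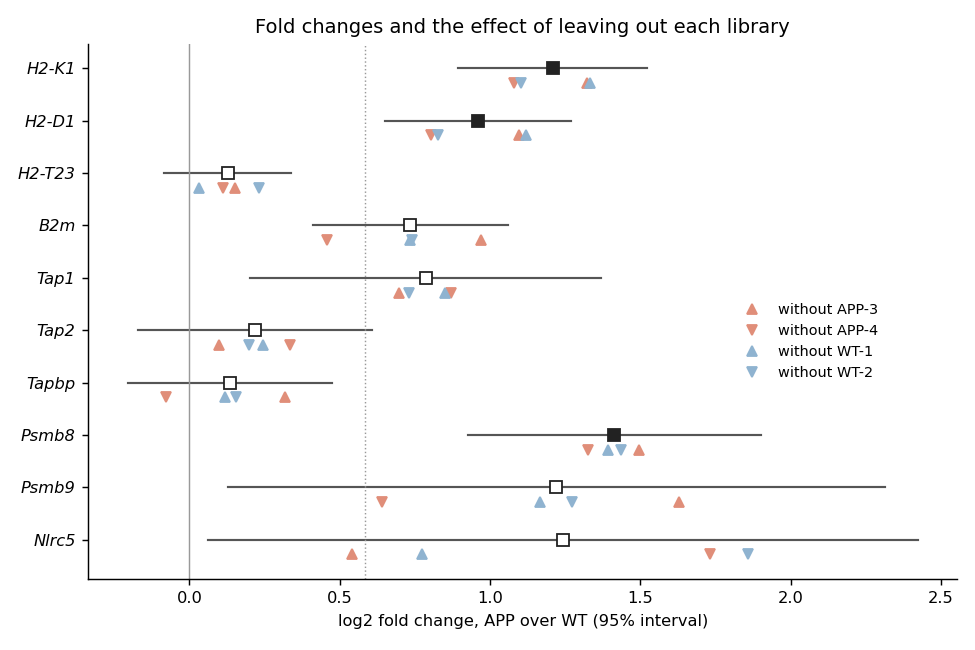
Log2 fold change, APP over WT, of each gene with its approximate 95% interval (filled squares passed both cut-offs, the dotted line is a 1.5-fold change). Triangles give the value without 1 library and spread most for B2m, Tapbp and Psmb9 between the APP libraries and for Nlrc5 in both groups. All triangles of H2-K1, H2-D1 and Psmb8 stay above the 1.5-fold line, as do those of Tap1 and Psmb9, which did not pass both cut-offs.

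TAP and tapasin load the heavy chains. Tap1 (chromosome 17, 34187553 to 34197225, plus strand) had 50 and 37 counts in WT-1 and WT-2 and 58 and 55 in APP-3 and APP-4, or 1.14 and 1.04 CPM against 1.999 and 1.78. Both APP libraries lay above both WT libraries, and the log2 fold change was 0.79 (SE 0.26), but the adjusted p was 0.246. Tap2 (chromosome 17, 34203527 to 34216321, plus strand), which encodes the second subunit of the transporter, had 159 and 124 counts in WT and 130 and 118 in APP. At 3.62 and 3.498 CPM in WT and 4.48 and 3.81 in APP its APP libraries lay only slightly above WT, and its log2 fold change of 0.22 had an interval of -0.17 to 0.61 (adjusted p = 0.682). Tapbp (chromosome 17, 33915899 to 33929292, plus strand) had 408 and 337 counts in WT and 258 and 363 in APP, or 9.28 and 9.51 CPM against 8.89 and 11.7. Its groups overlapped, since APP-3 was the lowest of the 4 libraries and APP-4 the highest. Its log2 fold change was 0.14 (interval -0.21 to 0.48, adjusted p = 0.804), and without APP-4 it was -0.08.

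Psmb8 (chromosome 17, 34197721 to 34201454, plus strand) encodes the inducible beta5i subunit, which replaces Psmb5 in the immunoproteasome and gives peptides ends that suit class I. WT-1 and WT-2 held 53 and 44 counts and APP-3 and APP-4 held 89 and 107, or 1.21 and 1.24 CPM against 3.07 and 3.45. This was the largest fold change among the 10 genes, 2.66-fold or 1.41 on the log2 scale (SE 0.21, adjusted p = 0.0204), and the replicates of each group lay close together. The size held without any 1 library (1.33 to 1.496), but the adjusted p rose to 0.0521 without WT-1 and 0.0598 without WT-2.

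Psmb9 (chromosome 17, 34181987 to 34187764, minus strand), the inducible counterpart of Psmb6, had 15 and 13 counts in the WT libraries, 16 in APP-3 and 34 in APP-4, or 0.341 and 0.367 CPM against 0.551 and 1.098. Only APP-4 stood well above the others. The log2 fold change of 1.22 had an SE of 0.48 and an adjusted p of 0.345, and it was 1.63 without APP-3 (adjusted p = 0.0427) and 0.64 without APP-4. The only counted Psmb9 transcript is of the retained-intron type, and the gene overlaps Tap1 on the other strand over 212 bases. The RefSeq start windows of Tap1 and Psmb9 have 275 of 300 bases in common, on opposite strands. Whether the counting used strand is not given in the sources used here.

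The proteasome subunits that do and do not answer to interferon were compared within each library by their counts per kilobase. Psmb8 made up 4.94% of the sum of Psmb8 and Psmb5 in APP-3 and 6.30% in APP-4, against 2.04% in WT-1 and 2.11% in WT-2. The difference in the log2 ratio was 1.48, with p = 0.33, the smallest that the exact permutation test allows. Psmb9 made up 0.384% and 0.757% of the sum with Psmb6 in APP and 0.237% and 0.254% in WT. The only Psmb9 transcript counted was of the retained-intron type, so no coding Psmb9 transcript enters this share or the ratio of all 3 subunits. Psmb10, the third inducible subunit, was counted far more than the others and made up 11.8% and 13.9% of the sum with Psmb7 in APP and 13.4% and 11.9% in WT, so these groups overlapped. For all 3 inducible over all 3 constitutive subunits, the log2 ratio was -3.83 and -3.89 in the WT libraries, -3.81 in APP-3 and -3.52 in APP-4. The APP libraries were thus higher by 0.19 on average, which the exact two-sided permutation test gave its smallest possible p of 0.33, and by 0.05 without APP-4 and 0.34 without APP-3. Psmb5, Psmb6 and Psmb7 had log2 fold changes of -0.07, -0.00 and -0.08, with adjusted p from 0.802 to 0.992.

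**Figure D3:**
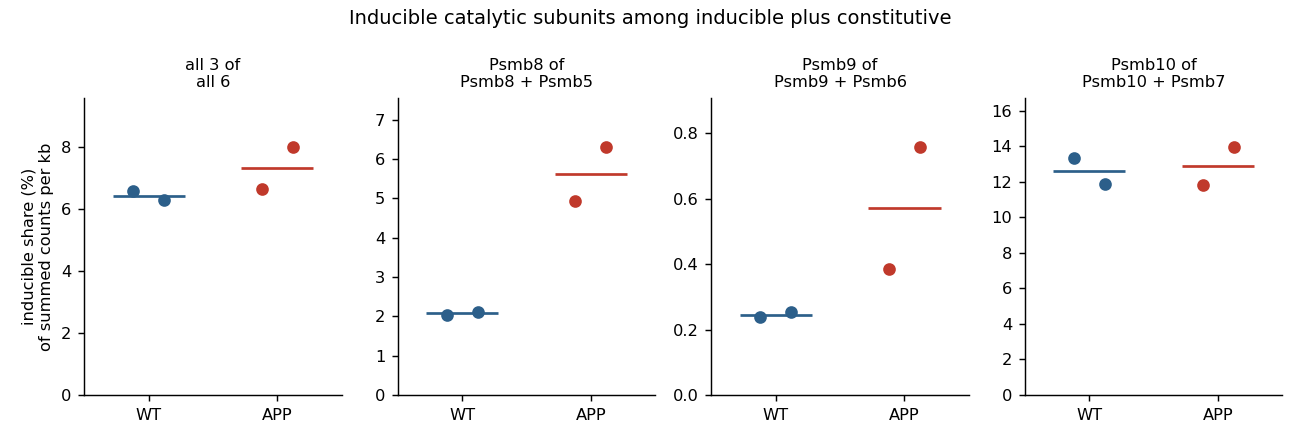
Share (%) of the inducible subunit in the summed counts per kilobase of an inducible subunit and the constitutive subunit it replaces, by library, with the mean of each group as a line and axes from 0. Psmb8 lies at 2.04% and 2.11% in WT and at 4.94% and 6.30% in APP, while the groups overlap for Psmb10. The Psmb9 counts come from a retained-intron transcript.

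Nlrc5 (chromosome 8, 94434356 to 94527272, plus strand), which drives class I transcription at the X and Y boxes, was the least abundant of the 10 genes per length. It had 14 and 24 counts in WT-1 and WT-2, 47 in APP-3 and 22 in APP-4, or 0.319 and 0.677 CPM against 1.62 and 0.710. APP-4 lay just above WT-2, and APP-3 stood apart. The log2 fold change of 1.24 had an SE of 0.52 and an adjusted p of 0.379, and it was 1.73 without APP-4 and 0.54 without APP-3. It was 0.77 without WT-1 and 1.86 without WT-2.

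Per length, the 10 genes spanned from B2m to Nlrc5. In WT, the level in CPM per kilobase was 41.3 ± 0.0792 for B2m, 13.2 ± 1.15 for H2-T23, 6.75 ± 1.08 for H2-D1, 4.17 ± 0.480 for H2-K1 and 3.24 ± 0.0543 for Tapbp (SD, n = 2). Tap2 followed with 1.03 ± 0.0247, Psmb8 with 0.752 ± 0.0153, Tap1 with 0.417 ± 0.0254, Psmb9 with 0.123 ± 0.00623 and Nlrc5 with 0.0717 ± 0.0365. The level of Psmb9 is that of a retained-intron transcript. No neighbours in this order overlapped between the WT libraries. In APP the order was the same except that Psmb8, at 2.003 ± 0.168, lay above Tap2, at 1.204 ± 0.138. There Psmb9 (0.191 and 0.381) and Nlrc5 (0.233 and 0.102) overlapped. H2-D1 (12.7 ± 1.799) stayed below H2-T23 (14.4 ± 0.334) in APP.

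The other genes of the pathway were read against the same background. Of 77 related genes of class I presentation, 63 were counted, 1 was upregulated past both cut-offs and 0 were downregulated, which is near the 0.843% of all features, with a median log2 fold change of 0.02. The 1 gene was Lilrb4a, a myeloid inhibitory receptor of the family that includes receptors for class I, with 7 and 4 counts in WT-1 and WT-2 and 61 and 49 in APP-3 and APP-4 (log2 fold change 3.70, SE 0.41, adjusted p = 0.00588). At an unadjusted p under 0.05 in the same fit, 9 of the 63 were higher and 1 was lower, where 12.1% of all features reached that p in either direction. DESeq2 also gave 1 gene past both cut-offs and 0 lower, and edgeR's exact and likelihood ratio tests gave 2 each and 0 lower, against 1.08%, 1.77% and 1.91% of all features called higher by these tests. Among the 13 other heavy chains counted the median was 0.16, with 0 past the cut-offs in any of the 4 tests and 2 at an unadjusted p under 0.05, both higher (H2-Q7 at 0.75 and H2-T24 at 0.65 on the log2 scale), and H2-Q4 was the most counted. In the endoplasmic reticulum, the 9 chaperones and loading factors had a median of -0.07, and calnexin (Canx), the most counted, had 0.05 (adjusted p = 0.821). The largest difference in this list, picked after its values were seen, was that of the chaperone Hspa5 (BiP), with 366 and 348 CPM in WT and 252 and 286 in APP (log2 fold change -0.41, adjusted p = 0.0518), and both APP libraries lay below both WT libraries. The trimming aminopeptidase Erap1, picked likewise, had 0.28 (adjusted p = 0.387). Among 11 genes of cytosolic peptide supply the median was -0.03, with 0.01 for Lnpep, a trimming aminopeptidase (adjusted p = 0.982). Among 4 class I-like molecules the median was 0.30, and the iron regulator Hfe had -0.05 (adjusted p = 0.936). Of the 12 regulators counted 0 passed in this fit, 3 were higher at an unadjusted p under 0.05, and 1 passed in the exact test and the likelihood ratio test of edgeR. Irf8, a myeloid interferon regulatory factor picked after its values were seen, had 139 and 129 counts in WT and 155 and 208 in APP (log2 fold change 0.83, adjusted p = 0.0775), and it was the regulator that passed in those tests. The 4 interferon receptor genes counted had a median of 0.11, with -0.06 for Ifnar1 (adjusted p = 0.810), and Ifng and Ifnb1 had no counted row here. Lrp1, the most counted gene on the list of receptors, had 0.11 (adjusted p = 0.582).

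Markers of the cell types that could carry these transcripts were compared as well. All 16 microglial markers were above 0, with a median log2 fold change of 0.73, and 9 passed both cut-offs. Their summed level was 606 CPM in APP-3 and 735 in APP-4 against 358 in WT-1 and 363 in WT-2. Tyrobp, a signalling adaptor of microglia, stood at 2.08 on the log2 scale (adjusted p = 5.23e-05) and Cx3cr1, the fractalkine receptor, at 0.72 (adjusted p = 0.00646). Of 12 endothelial markers 0 passed, the median was -0.08, and their summed level was 126 and 123 CPM in APP against 136 and 124 in WT. Of 14 T and NK cell markers 6 were counted and 0 passed, with a summed level of 6.79 and 9.98 CPM in APP and 6.96 and 7.84 in WT, while Cd3e, Cd3g, Trac and Nkg7 had no counted row here. The astrocyte list had a median of 0.19 with 2 of 10 past both cut-offs, the oligodendrocyte list 0.51 with 1 of 8, and the list of other myeloid cells 0.15 with 0 of 8. The 10 neuronal markers had a median of -0.08, the 6 of pericytes and smooth muscle -0.05 and the 2 counted of B cells -0.14, with 0 past the cut-offs in each. All 8 oligodendrocyte markers were higher at an unadjusted p under 0.05, with each APP library above each WT library, and 4 of them had an adjusted p under 0.05 (1.14% of all features did), while 14 of the 16 microglial and 4 of the 10 astrocyte markers were higher at an unadjusted p under 0.05. In the endothelial, T and NK cell, B cell, other myeloid, pericyte and neuronal lists, DESeq2 and edgeR's exact and likelihood ratio tests gave 0 too, and an unadjusted p under 0.05 was reached by 1 T cell marker (Lck, higher), 1 endothelial marker (Slc2a1, lower) and 1 neuronal marker (Slc17a7, lower). The part of microglial, astrocyte or oligodendrocyte content in the change of H2-K1, H2-D1 and Psmb8 was not tested.

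**Figure D4:**
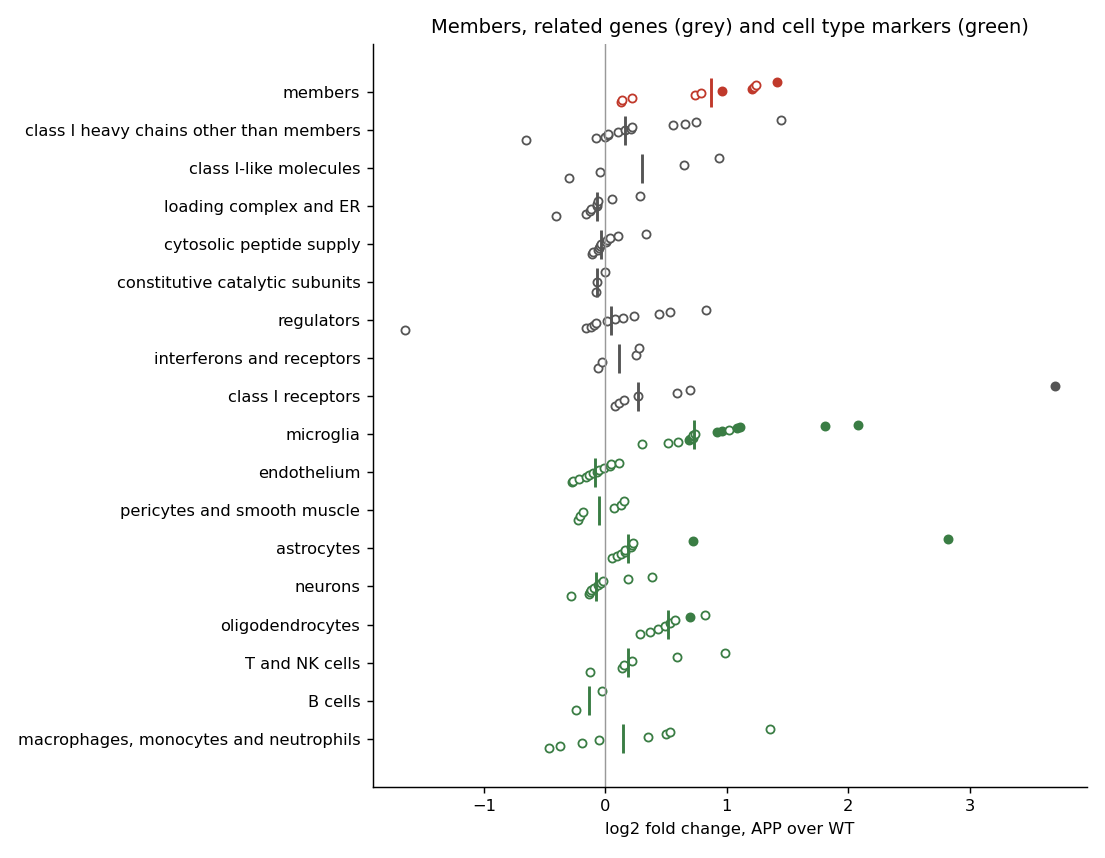
Log2 fold change, APP over WT, of the 10 genes (red), related genes of class I presentation (grey) and cell type markers (green), with a point per gene, filled where it passed both cut-offs, and a bar at the median of each list. The medians of the 10 genes (0.87) and of microglial markers (0.73) lie farthest to the right, and that of endothelial markers lies at -0.08.

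The genes whose profile over the 4 libraries was nearest to the mean profile of the 10 genes were looked for among 14659 other genes with a mean of at least 1 CPM, by the Euclidean distance of centred log2 CPM. They were Inpp5d, a phosphoinositide phosphatase, at 0.0200, Lyn, a Src family kinase, at 0.0380, Plcg2, a phospholipase C, at 0.0458, Abhd4, a lipid hydrolase, at 0.0523 and Msn, the membrane linker moesin, at 0.0544. Inpp5d had 16.2 and 17.6 CPM in APP and 9.69 and 10.01 in WT. The 10 genes themselves lay between 0.231 (Tap1) and 1.14 (Nlrc5) from their mean profile. These 5 were picked as the smallest of 14659 distances, so their lying closer says nothing about how alike the 10 genes are.

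By position, 8 of the 10 genes lie on chromosome 17 between 33915899 and 36032855, the MHC region. Of 101 other counted genes in this interval, 2 passed both cut-offs and were higher in APP, against 0.843% of all features. They were the complement genes C4a and C4b. Stretches shared with other genes were looked for only in the 10 genes, so exchange of reads between C4a and C4b was not tested. The median log2 fold change of the 101 genes was -0.00.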

How the data were processed

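RNA of the cortex of 2 APP and 2 WT mice was sequenced as 100 bp pairs, and the labels name CASAVA 1.8 among the tools. The authors discarded ribosomal pairs, aligned reads to Ensembl mouse transcripts with FANSe2 allowing 7 mismatches, and deposited raw counts per transcript without normalization, for transcripts with at least 10 mapped reads. The Ensembl release is not given in the sources used here. The deposited gene symbols were blank in 8274 rows and mixed in case, so counts were summed by transcript identifier in GENCODE M21 (98.2% of 37539 matched), which departs from the planned sums by symbol. A further 4 columns of values per library, and the authors' own comparison (log2 fold change, mean, p-value and FDR), were not used.

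Counts were tested in R 4.3.3 with edgeR 4.0.16 (quasi-likelihood test, TMM, no covariate, Benjamini-Hochberg over 18386 features), and with DESeq2 1.42.0 as an alternative, after tests on simulated data. Intervals use the fitted standard error and the t distribution. CPM use TMM library sizes, and log2 profiles a prior count of 2. Intervals and p-values of the fits reflect the spread between these 4 samples, which may be technical in part, together with spread pooled across features. Members and lists were chosen with earlier results of these data known. Named are the 10 members, related genes with FDR under 0.05, the most counted gene of each related list, up to 2 defining markers of a list and the 5 genes of nearest profile. A further gene of this rule is not reported here. Figures and ratios were made with Python 3.11.15, pandas 2.3.3 and numpy 2.4.6.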

Additional observations from a re-analysis of the deposited data

How the results depend on the processing

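The number of the 10 genes past both cut-offs stayed between 3 and 4 with all libraries, under edgeR's likelihood ratio and exact tests, DESeq2, other scalings, at least 10 counts in every library, no fold cut-off, transcripts and deposited symbols, the last chosen after the data had been seen. Leaving out 1 library gave 2 to 5, with 5 without APP-3, where a lone APP library was assumed to vary like the WT pair and 601 features passed in place of 162. Without APP-4, 478 passed, and with the exact and likelihood ratio tests 354 and 391. Among related genes, the 1 past both cut-offs became 2 with the exact test, 2 with the likelihood ratio test and 2 by transcript, in each case with Irf8 added, 0 where at least 10 counts in every library left Lilrb4a out, and 1 to 5 without 1 library. The log2 fold change of Tapbp ran from -0.076 without APP-4 to 0.319 without APP-3. B2m passed under 6 of the alternatives with all libraries. The summed subunit ratio difference was 0.05 to 0.34 without 1 library and did not move with TMM, which cancels within a library. Psmb9 and Nlrc5 had 13 to 47 counts per library and the widest intervals. No paired analysis was made, since neither the labels nor the study's methods give pairs of APP and WT mice.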
